A study of Mus musculus with 12 samples.

Results

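Primary keratinocytes from BALB/c neonatal mice were compared between 2 batches in 10 of the 12 RNA-Seq libraries of the study. The members are the libraries that received a non-targeting pool of short interfering RNA (siControl) or a pool directed against *Sbsn* (siSbsn). Batch 1 held 2 siControl and 2 siSbsn libraries, and batch 2 held 3 of each. Batch and treatment were taken from the sample labels, and the 2 libraries of batch 1 without siRNA were kept out of the test and used only as a further view of batch 1.

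The protocols in the labels are the same for both batches. Cells were grown at 0.05 mM calcium, received 75 pmol of siRNA 24 hours after seeding, were brought to 0.12 mM calcium to differentiate, and were harvested 48 hours after transfection. No group carries a genetic change. The labels give a batch number and no date, litter, operator or sequencing run, so whatever changed with the batch number cannot be told apart from it. They do not say that replicates came from separate cultures or mice, so p-values measure the spread between these libraries, which may be technical. The study's methods describe triplicates, whereas the labels of batch 1 give 2 libraries of each treatment.

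The epidermis is renewed from basal keratinocytes, which hold on to the basement membrane and divide. Raised calcium starts their differentiation, first into spinous cells with suprabasal keratins and desmosomes, then into granular cells that make cornified envelope precursors, the enzymes that cross-link them, and barrier lipids. Wounded or stressed keratinocytes switch on a further programme of stress keratins, alarmins and cytokines, and cultured keratinocytes carry part of it.

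Among 19 gene lists on differentiation, basal cells, stress and metabolism, those of terminal differentiation, stress keratins and cholesterol synthesis held the highest shares of loci lower in batch 2, and p53 target genes the highest share of loci higher. In the model with treatment as a term, 44 of 48 envelope precursor loci, 14 of 17 spinous layer loci, 13 of 13 stress keratin and alarmin loci and 19 of 22 cholesterol synthesis loci were lower in batch 2 by edgeR's quasi-likelihood test. A locus counted as called where its log2-fold change passed 0.5 in either direction and its p, adjusted by Benjamini-Hochberg, was under 0.05. By the same rule 2902 (21.6%) of all 13419 loci tested were lower in batch 2, and 2192 (16.3%) were higher. Of the calls 43% were higher, a share that became 58.8% when counts were scaled by library totals only, which moved the median of all loci from -0.02 to 0.12. All fold changes are batch 2 minus batch 1, and levels are CPM, counts scaled to a common library size with edgeR's TMM factors.

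The libraries of batch 1 varied more among themselves than those of batch 2. Total counts ranged from 27934836 to 49553923 and averaged 35984036 in batch 1 and 36192747 in batch 2, a difference that an exact two-sided permutation test of batch within treatment over 100 arrangements did not separate (p = 0.91, and the smallest possible was 0.01). The median within-group SD of log2 CPM was 0.26 in batch 1 and 0.11 in batch 2. Keratin loci took 6.32% to 11% of the counts in batch 1 and 4.38% to 5.87% in batch 2. The highest share was that of siControl batch 1 replicate 1, which lay a median of 0.48 log2 units from its batch mates.

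*Sbsn*, the gene the siRNA was aimed at, went against the label of a library in batch 1. *Sbsn* encodes suprabasin, a secreted protein of the suprabasal epidermis. Its level in batch 1 was 1201 and 1365 CPM with siControl, 699 CPM in siSbsn replicate 2 and 1981 CPM in the library labelled siSbsn batch 1 replicate 1. In batch 2 it was at 374, 336 and 452 CPM with siControl and at 125, 126 and 122 CPM with siSbsn. Every library of batch 2, treated with siRNA against *Sbsn* or not, was therefore below every library of batch 1. The fitted difference was -2.63 ± 0.36 (SE, adjusted p = 2.37e-04, edgeR) with treatment as a term. It was -1.73 in siControl alone and -3.42 in siSbsn alone, and over both treatments it was -2.03 if the siSbsn library with 1981 CPM was left out. Because 2 libraries of batch 1 stood apart, the results are also given with both number 1 libraries of batch 1 left out.

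Promoters of 4 genes are shown because each is a gene lower in batch 2 and holds a letter pattern that is known for its group. The sequences are from RefSeq (GRCm38.p6), cover 250 bases before to 50 after the annotated start, and are given in the direction of the gene. Capitals mark the matches on either strand: the AP-1 element TGANTCA in *Sprr2d*, the antioxidant element TGANNNNGC in *Osgin1*, the interferon element AAANNGAAA in *Ifi44* and the CCAAT box, CCAAT, in *Msmo1*.
*Sprr2d* promoter (chr3:92338890-92339189, plus strand): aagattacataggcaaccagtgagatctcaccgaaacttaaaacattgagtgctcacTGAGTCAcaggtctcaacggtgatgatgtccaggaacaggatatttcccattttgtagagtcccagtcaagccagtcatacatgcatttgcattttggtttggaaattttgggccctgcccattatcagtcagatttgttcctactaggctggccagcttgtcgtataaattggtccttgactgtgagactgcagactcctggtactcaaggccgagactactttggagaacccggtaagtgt
*Osgin1* promoter (chr8:119436897-119437196, plus strand): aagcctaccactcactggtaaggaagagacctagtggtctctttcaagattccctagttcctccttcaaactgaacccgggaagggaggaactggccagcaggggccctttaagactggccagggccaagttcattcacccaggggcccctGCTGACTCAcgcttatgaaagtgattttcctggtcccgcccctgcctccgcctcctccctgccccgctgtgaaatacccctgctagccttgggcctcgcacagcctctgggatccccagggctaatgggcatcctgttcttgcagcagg
*Ifi44* promoter (chr3:151749861-151750160, minus strand): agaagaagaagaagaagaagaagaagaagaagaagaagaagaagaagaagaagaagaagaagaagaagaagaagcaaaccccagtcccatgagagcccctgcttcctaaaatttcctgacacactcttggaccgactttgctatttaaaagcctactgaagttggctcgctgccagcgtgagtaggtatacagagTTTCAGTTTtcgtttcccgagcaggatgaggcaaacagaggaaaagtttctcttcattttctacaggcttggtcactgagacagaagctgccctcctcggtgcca
*Msmo1* promoter (chr8:64733529-64733828, minus strand): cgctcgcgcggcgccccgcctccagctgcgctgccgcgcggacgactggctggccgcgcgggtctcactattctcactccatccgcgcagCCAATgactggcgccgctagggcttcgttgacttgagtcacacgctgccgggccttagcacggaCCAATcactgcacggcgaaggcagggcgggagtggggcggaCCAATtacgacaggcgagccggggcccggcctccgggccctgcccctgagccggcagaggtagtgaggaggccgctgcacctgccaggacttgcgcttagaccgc

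The patterns were counted in the promoters of all tested loci that RefSeq matched by symbol, 9179 in all. The AP-1 element was in 5.22% of them and in 16 of 42 envelope precursor promoters (38.1%), although many of these belong to families of near-identical copies. The interferon element was in 7.29% of all promoters and in 17 of 24 of the interferon-stimulated genes (70.8%). The CCAAT box was in 38.3% of all promoters, in 14 of 15 of the cholesterol synthesis genes (93.3%), in 23 of 29 of the cell cycle genes (79.3%) and in 20 of 25 of the unfolded protein genes (80%). The antioxidant element was in 42.9% of all promoters and in 10 of 20 of the NRF2 target genes (50%), and its match in *Osgin1* overlaps a match of the AP-1 element. The hypoxia element ACGTG was in 25.4% of all promoters and in 14 of 23 of the hypoxia and glycolysis genes (60.9%). These shares describe letters in a window and were not tested.

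**Figure D1:**
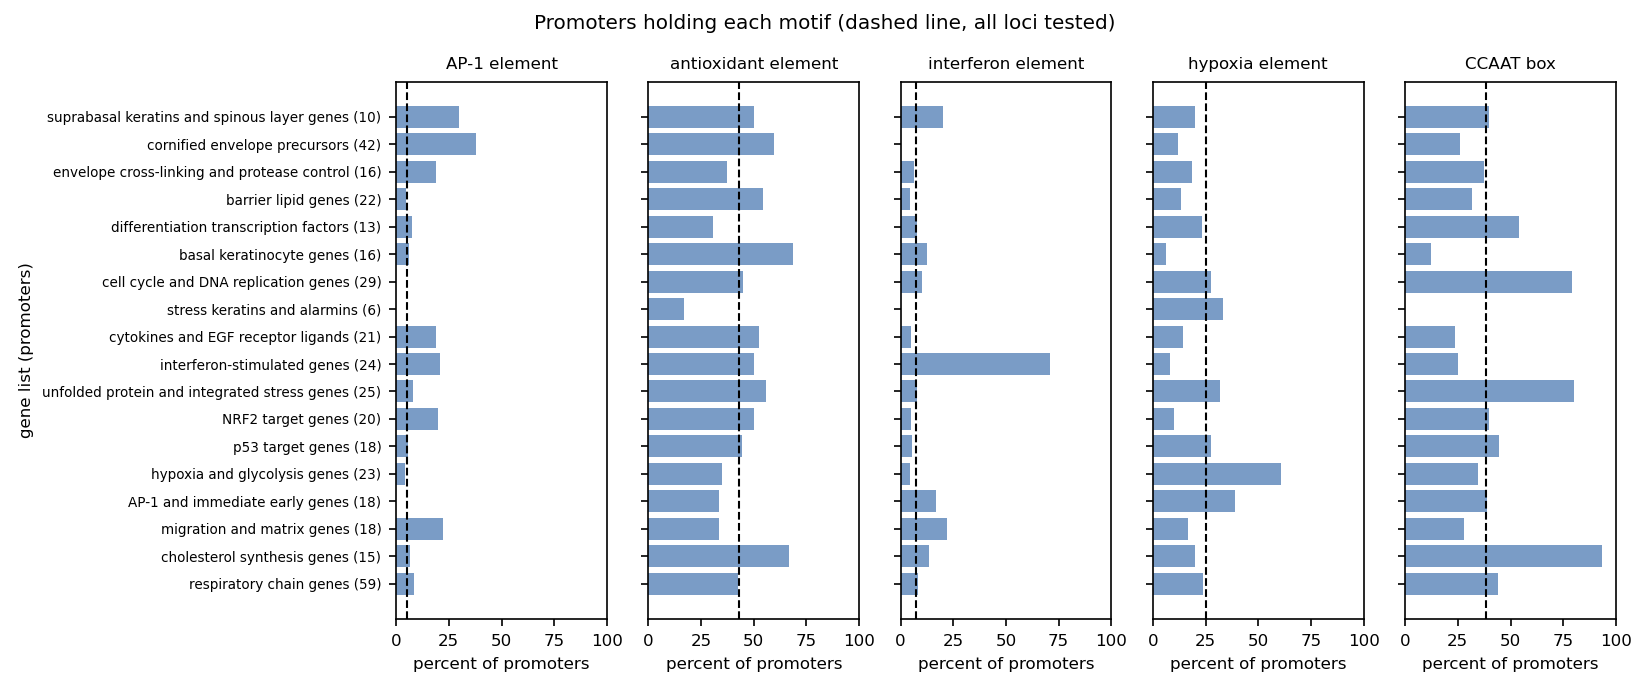
Share of promoters that hold each of 5 letter patterns, for 18 gene lists (bars; number of promoters in brackets) and for all 9179 promoters of tested loci (dashed line), on linear axes in percent. The interferon element stands out in the interferon-stimulated genes (70.8% against 7.29%), the AP-1 element in the envelope precursors (38.1% against 5.22%) and the CCAAT box in the cholesterol synthesis genes (93.3% against 38.3%).

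To find which programmes differed, the called members of each list were counted. The cornified envelope is the protein shell that replaces the membrane of the outermost cells. Of its 48 tested precursor loci 44 (91.7%) were lower in batch 2, *Flg2* (0.84) and *Tchh* (0.51) were higher, and *Flg* and *Rptn* were not called. The list's median log2-fold change was -1.85, against -0.02 over all loci tested. In 37 of the 48 loci all 6 libraries of batch 2 were below all 4 of batch 1, an arrangement found in 19.6% of all loci. With both number 1 libraries of batch 1 left out the median was -1.59 and 43 loci were lower.

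Families of envelope precursors differed in a common direction. The small proline-rich proteins were lower at 14 of 14 tested *Sprr* loci, with log2-fold changes from -4.42 to -1.39. The -4.42 is that of *Sprr3*, whose levels were low, with means of 1.13 CPM in batch 1 and 0.0465 CPM in batch 2. The summed level was 3064 CPM in batch 1 and 859 CPM in batch 2, most of it from *Sprr1a* (2184 and 633 CPM). All 13 tested *Lce1* loci were lower (median -1.91), and so were all 6 *Lce3* loci (median -1.15). Many *Sprr2* and *Lce* genes are near-identical copies, and only uniquely aligned reads were counted, so the split of reads between copies is uncertain.

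Involucrin, an early scaffold of the envelope, showed the difference at a single gene. *Ivl* was at 189 and 129 CPM with siControl and at 129 and 116 CPM with siSbsn in batch 1, and between 22.3 and 33.1 CPM (median 28.1) in batch 2. No library of batch 2 came near batch 1, and the log2-fold change was -2.31 ± 0.15 (SE, adjusted p = 2.35e-06, edgeR). *Lor*, which encodes loricrin, the main protein of the mature envelope, was lower in level, at 30.1, 13.4, 21.2 and 9.87 CPM in batch 1 and 4.39 to 5.92 CPM (median 5.26) in batch 2. Its log2-fold change was -1.81 ± 0.26 (adjusted p = 3.61e-04, edgeR).

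*Sprr2d*, whose promoter is printed above with its AP-1 match, was among the largest changes of the list. It was at 23.7 and 26 CPM with siControl and 9.2 and 11.7 CPM with siSbsn in batch 1, and at 1.4 to 1.97 CPM (median 1.55) in batch 2, a 10.3-fold difference (-3.36 ± 0.21, adjusted p = 2.27e-06, edgeR). *Cnfn*, which encodes cornifelin, was at 2173, 1212, 745 and 760 CPM in batch 1 and at 123 to 216 CPM (median 149) in batch 2. In both genes the siControl libraries of batch 1 were above its siSbsn libraries, and batch 2 was below all of them. *Sprr2a3* was at 24.2 to 81.5 CPM in batch 1 and 7.81 to 11.5 CPM in batch 2 (-2.38 ± 0.26).

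Filaggrin did not follow the other precursors. *Flg* was at 1.13, 5.27, 10.3 and 17 CPM in batch 1 and 2.1 to 10.7 CPM (median 7.63) in batch 2, so the batches overlapped, and its log2-fold change was 0.03 ± 0.50 (adjusted p = 0.961, edgeR). The counted *Flg* locus is shorter than the annotated transcript, and the sign of its difference turned with the libraries used.

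**Figure D2:**
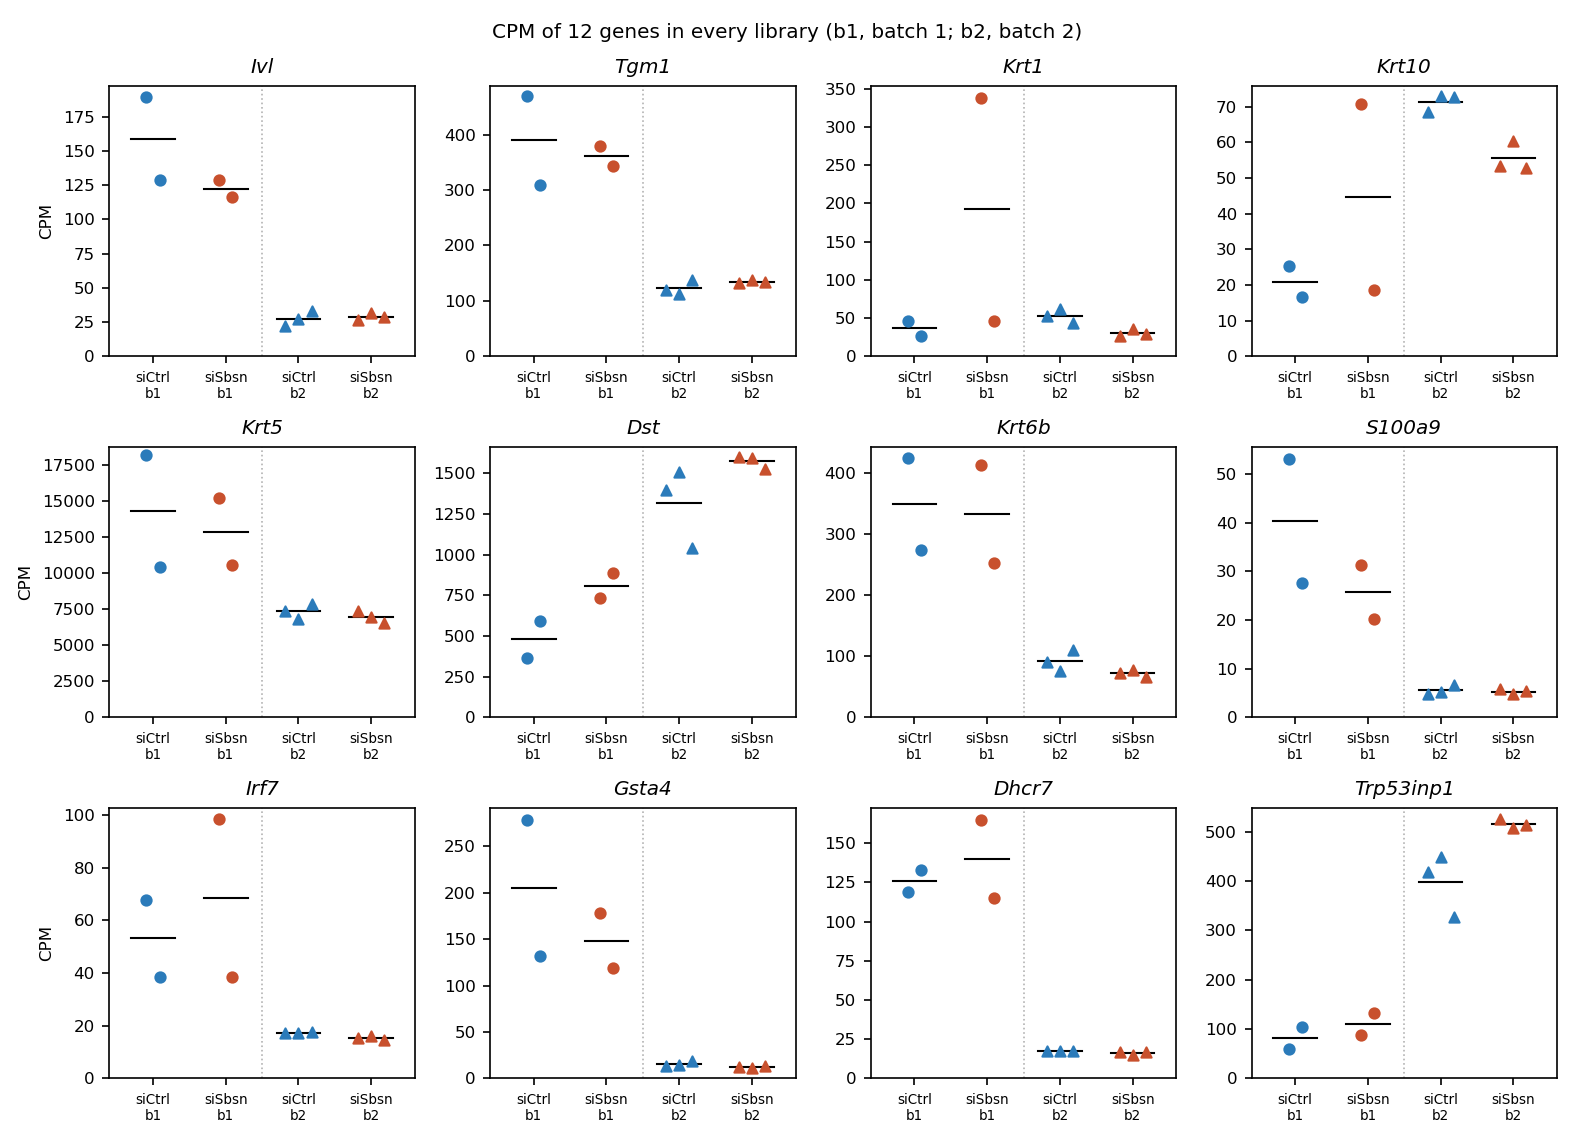
CPM of 12 genes in every library, on linear axes that start at 0; circles are batch 1, triangles batch 2, blue is siControl, red is siSbsn, and the line is the group mean. *Ivl*, *Tgm1*, *Krt6b*, *S100a9*, *Irf7*, *Gsta4* and *Dhcr7* lie lower in all 6 libraries of batch 2 and *Trp53inp1* and *Dst* higher, while the single *Krt1* value of 338 CPM is that of the library labelled siSbsn batch 1 replicate 1.

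The spinous layer list, of suprabasal keratins and their companions, held 14 of 17 tested loci lower in batch 2 and had a median of -1.84. The classical keratin pair of the spinous layer did not move with it. *Krt1* was at 46.6 and 26.6 CPM with siControl and at 338 and 46.8 CPM with siSbsn in batch 1, against 27.1 to 62.2 CPM (median 40.1) in batch 2. The high value is that of the library labelled siSbsn batch 1 replicate 1, and apart from it the batches overlapped. Its log2-fold change was -1.24 ± 0.70 (adjusted p = 0.155, edgeR) with that library and 0.07 without it.

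*Krt10*, the partner of *Krt1*, was the list's only locus called higher. It was at 25.4, 16.5, 70.8 and 18.7 CPM in batch 1 and at 52.9 to 73 CPM (median 64.4) in batch 2, and the 70.8 CPM was again found in the library labelled siSbsn batch 1 replicate 1. For *Krt10* the difference was 1.00 ± 0.38 (adjusted p = 0.0441, edgeR). It was 1.77 in siControl alone (adjusted p = 0.00916) and 0.33 in siSbsn alone (adjusted p = 0.566), and it missed the threshold in several fits that left out a library.

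Other spinous and granular layer genes were lower without overlap. *Ly6g6c* was at 197 to 531 CPM in batch 1 and 52 to 66 CPM in batch 2 (-2.62 ± 0.22). *Gsdma*, a gasdermin of the upper epidermis, was at 26.5 to 60.5 CPM and 6.79 to 8.07 CPM (-2.47 ± 0.18). Both had adjusted p under the threshold, 1.07e-05 and 6.16e-06 by edgeR. With both number 1 libraries left out, the list had a median of -1.26 and 15 loci lower.

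Enzymes that finish the envelope were lower as well, at 16 of 19 tested loci (median -1.47). *Tgm1*, the transglutaminase that cross-links envelope proteins, was at 470, 310, 379 and 343 CPM in batch 1 and 113 to 138 CPM (median 133) in batch 2 (-1.54 ± 0.12, adjusted p = 7.13e-06, edgeR). All 7 tested kallikreins, proteases that shed the outer cells, were lower (median -1.96), among them *Klk6* (-2.79 ± 0.14) and *Klk7* (-2.19 ± 0.09). The protease inhibitor gene *Cst6*, encoding cystatin E/M, was at 182 to 443 CPM in batch 1 and 31 to 49.1 CPM in batch 2 (-3.09 ± 0.24). *Tgm3*, *Serpinb5* and *Blmh* were not called, at -0.17, -0.31 and -0.37.

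Barrier lipid genes, which make the ceramides and fatty acids between the outer cells, were lower at 18 of 26 tested loci and higher at none, with a median of -1.03. *Dgat2*, which makes triglycerides, was at 82.9, 58.3, 113 and 68 CPM in batch 1 and 13 to 14.4 CPM (median 13.5) in batch 2 (-2.56 ± 0.15, adjusted p = 1.80e-06, edgeR). *Cyp4f39*, a fatty acid hydroxylase of acylceramide synthesis, and *Sdr9c7*, a dehydrogenase of the same barrier lipids, differed by -2.47 ± 0.17 and -1.97 ± 0.21. *Aloxe3* was at 0.39 and not called, while *Alox12b*, which acts just before it, was at -3.06. With both number 1 libraries left out 18 loci were lower and the median was -0.76.

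Transcription factors of differentiation were examined next. Of 27 tested, 10 were lower (37%), *Dlx5* was higher (0.85), and 16 were not called, with a median of -0.34. Of all loci 21.6% were lower and 16.3% higher. The number lower was 5 in siControl alone and 11 in siSbsn alone. It was 8 with the length trend removed and 8 with both number 1 libraries left out. The broad drivers of the programme were among those not called, with *Klf4* at -0.14, *Grhl3* at -0.16 and *Zfp750* at -0.42. For *Zfp750* the batches did not overlap (adjusted p = 6.75e-04, edgeR), and only the fold threshold was missed. The called members included *Hopx*, a homeodomain protein induced in differentiation, at 516, 364, 631 and 348 CPM in batch 1 and 65.9 to 94.7 CPM (median 69.3) in batch 2 (-2.67 ± 0.18, adjusted p = 3.20e-06, edgeR). The epithelial ETS factors *Elf3* (-1.67 ± 0.20) and *Ehf* (-1.55 ± 0.13) were lower without overlap between the batches. *Elf5*, of the same family, was at -4.29 from a mean of 7.6 CPM in batch 1.

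**Figure D3:**
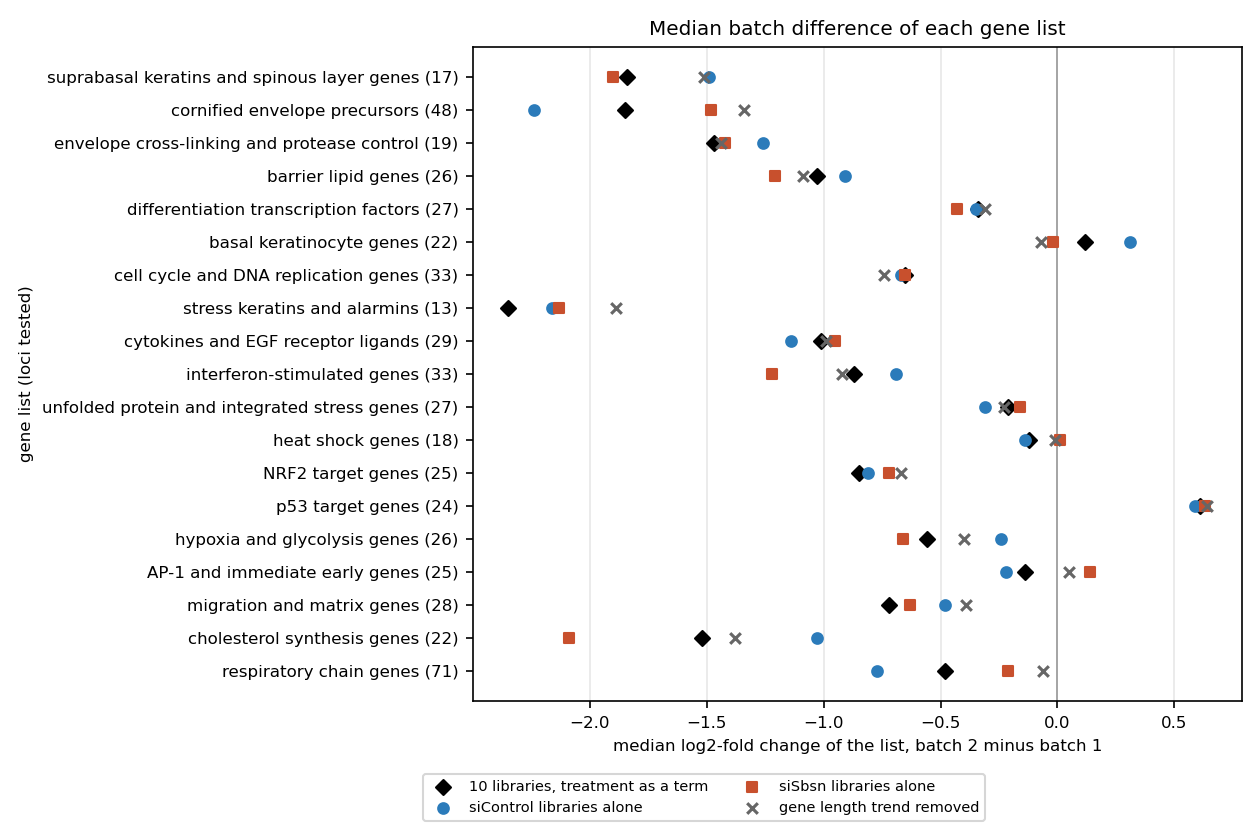
Median log2-fold change, batch 2 minus batch 1, of 19 gene lists (number of loci tested in brackets) from all 10 libraries (black), from siControl (blue) or siSbsn (red) libraries alone, and after a trend with transcript length was removed from each library (grey crosses). Envelope, spinous layer, stress keratin and cholesterol lists lie at or below -1.03 in each of these fits, the p53 list lies between 0.59 and 0.64, and the basal, heat shock and AP-1 lists lie on both sides of 0.

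The basal programme showed no common direction. Of 22 tested basal genes 5 (22.7%) were higher, 3 (13.6%) were lower and 14 were not called, beside 16.3% and 21.6% of all loci, and the median of 0.12 turned to -0.02 in siSbsn alone and to -0.07 with the length trend removed. The keratins of the basal layer were lower. *Krt5* was at 18168, 10438, 15197 and 10574 CPM in batch 1 and 6560 to 7890 CPM (median 7185) in batch 2 (-0.92 ± 0.15, adjusted p = 7.78e-04, edgeR). *Krt14*, its partner, was at 29108, 15655, 18655 and 15134 CPM and at 9712 to 13185 CPM (median 10884), with -0.84 ± 0.17 (adjusted p = 0.00225).

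Neither keratin overlapped between the batches, but the calls depended on the libraries. In siControl alone the adjusted p was 0.0565 for *Krt5* and 0.0706 for *Krt14*. Leaving out both number 1 libraries gave -0.54 and -0.49.

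Genes that anchor basal cells went both ways. *Col7a1*, the collagen of anchoring fibrils, was at 61.2, 52.4, 122 and 64.2 CPM in batch 1 and 19.8 to 28.5 CPM in batch 2 (-1.59 ± 0.22, adjusted p = 2.57e-04, edgeR). *Dst*, whose epidermal product links keratin to hemidesmosomes, was at 366, 593, 733 and 886 CPM in batch 1 and 1040 to 1601 CPM in batch 2 (1.20 ± 0.17, adjusted p = 3.12e-04). Its transcript is 23279 bases long, and removing the length trend left 0.18. The laminin gene *Lama5* went from 1.11 ± 0.20 to 0.51 with the trend removed. Among the other higher members of the basal list, *Syne2*, with 21704 bases, went from 1.15 ± 0.26 to 0.20. *Egfr* went from 0.73 to 0.18 and *Dll1* from 0.75 to 0.77. *Trp63*, the master regulator of the epidermal lineage, was at 110 to 229 CPM in batch 1 and 180 to 238 CPM in batch 2 and was not called (0.31 ± 0.14, adjusted p = 0.0907).

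Cell cycle genes were lower in batch 2 at 20 of 33 tested loci (60.6%) and higher at none, with a median of -0.65. *Aurkb*, a mitotic kinase, was at 14.2, 14, 13.2 and 12.4 CPM in batch 1 and 4.92 to 5.82 CPM (median 5.53) in batch 2 (-1.30 ± 0.08, adjusted p = 2.07e-06, edgeR). *Cdk1*, the kinase that drives mitosis, was at 27.3 to 40.9 CPM and 13.2 to 15.5 CPM (-1.19 ± 0.09). *Ccnb2*, its cyclin, differed by -1.17 ± 0.12. Of the 6 *Mcm* loci, which encode the replication helicase, *Mcm3* and *Mcm6* were called, and the median was -0.32.

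The proliferation marker *Mki67* was at 40.1, 59.8, 65.7 and 83.8 CPM in batch 1 and 35.3 to 53.1 CPM (median 50) in batch 2. The batches overlapped and it was not called (-0.37 ± 0.15, adjusted p = 0.0545, edgeR). Its transcript of 10061 bases is long, and with the length trend removed it was at -0.93 (adjusted p = 1.59e-06). The median of the cell cycle list was -0.67 in siControl alone, -0.65 in siSbsn alone and -0.71 with both number 1 libraries left out.

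Stress keratins and alarmins, which keratinocytes switch on after wounding, were lower at every tested locus, 13 of 13, with a median of -2.35. *Lce3a* is also counted among the envelope precursors. Levels were low at *Lce3a*, *Lcn2* and *Defb4*, with means of 0.737, 0.178 and 0.231 CPM over the 10 libraries. *Krt6b* was at 424, 274, 413 and 252 CPM in batch 1 and 65.3 to 110 CPM (median 76.5) in batch 2, a 4.2-fold difference (-2.07 ± 0.17, adjusted p = 1.09e-05, edgeR). *Krt6a*, a near-identical copy for which only uniquely aligned reads were counted, was at 9322 to 15146 CPM and 4589 to 5730 CPM (-1.19 ± 0.14). *Krt16*, their partner, was at 3828 to 7636 CPM and 1940 to 2742 CPM (-1.18 ± 0.18). These keratins separated the batches in every library.

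*Krt17*, the most abundant locus in all 10 libraries, overlapped between them. It was at 50409, 24419, 27135 and 23153 CPM in batch 1 and 17642 to 24271 CPM (median 19694) in batch 2, where the highest value passed the lowest of batch 1. The difference was -0.63 ± 0.19 (adjusted p = 0.02, edgeR) and -0.32 without siControl batch 1 replicate 1, below the fold threshold.

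*S100a9*, *Defb14* and *Slpi*, of the antimicrobial members, did not overlap between the batches, whereas *Lcn2* did overlap. *S100a9*, a subunit of calprotectin, was at 53.1, 27.5, 31.3 and 20.2 CPM in batch 1 and 4.81 to 6.67 CPM (median 5.25) in batch 2 (-2.57 ± 0.21, adjusted p = 1.07e-05, edgeR). *Defb14*, a beta-defensin, was at 70.6, 49.2, 35.2 and 35 CPM and at 5.53 to 8.29 CPM (-2.80 ± 0.15). *Slpi*, a secreted protease inhibitor, was at 13.9 to 44.6 CPM and 1.58 to 4.64 CPM (-3.27 ± 0.28). With both number 1 libraries left out 12 loci of the list were lower, with a median of -1.71.

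Cytokines and ligands of the EGF receptor were lower at 20 of 29 tested loci (median -1.01), and *Cxcl10* was higher (0.85). *Il18*, an interleukin stored in keratinocytes, was at 9.79 to 29.2 CPM in batch 1 and 3.45 to 4.76 CPM in batch 2 (-2.21 ± 0.23). All 4 tested *Il1f* genes, cytokines of the interleukin 1 family, were lower (median -1.57), among them *Il1f9* (-1.67 ± 0.13). *Areg*, encoding amphiregulin, was at 11.6 to 18 CPM and 4.29 to 6.95 CPM (-1.46 ± 0.15), while *Epgn*, a ligand of the same receptor, was not called (-0.17).

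Interferon-stimulated genes were lower at 23 of 33 tested loci (69.7%) and higher at none, with a median of -0.87. *Irf7*, the transcription factor that amplifies the response, was at 67.9, 38.4, 98.5 and 38.5 CPM in batch 1 and 14.7 to 17.7 CPM (median 16.5) in batch 2 (-1.90 ± 0.24, adjusted p = 1.70e-04, edgeR). *Ifi44*, whose promoter is printed above with its interferon element, was at 39.6, 44, 93.7 and 42.2 CPM and at 13.8 to 16.2 CPM (-1.81 ± 0.21, adjusted p = 9.78e-05). The highest value of both genes was that of the library labelled siSbsn batch 1 replicate 1.

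*Isg15*, a ubiquitin-like modifier, was at 57 to 149 CPM in batch 1 and 27.4 to 37.6 CPM in batch 2 (-1.66 ± 0.24). The list was higher in batch 1 without siRNA too, with scores of 1.01 and 0.44 in the libraries without siRNA against -0.42 to -0.20 in batch 2, where a score is the median over the list of each locus's log2 deviation from its mean. Leaving out both number 1 libraries gave a median of -0.75 with 22 loci lower.

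NRF2 target genes, which detoxify and supply reducing power, were lower at 16 of 25 tested loci and higher at 3, with a median of -0.85. *Gsta4*, a glutathione transferase, was at 278, 132, 178 and 119 CPM in batch 1 and 11.6 to 18.2 CPM (median 13.8) in batch 2, a 12.7-fold difference (-3.66 ± 0.20, adjusted p = 1.23e-06, edgeR). *Nqo1*, a quinone reductase, was at 8.52 to 19.4 CPM and 1.71 to 2.58 CPM (-2.64 ± 0.24). *Osgin1*, whose promoter is printed above, was at 13.4, 11, 8.05 and 6.87 CPM and 2.01 to 3.11 CPM (-1.91 ± 0.13). The members that were higher, *Gclc* (0.78), *Txnrd1* (0.85) and *Ephx1* (0.70), also belong to antioxidant and detoxifying pathways, and *Hmox1* was not called (-0.22).

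**Figure D4:**
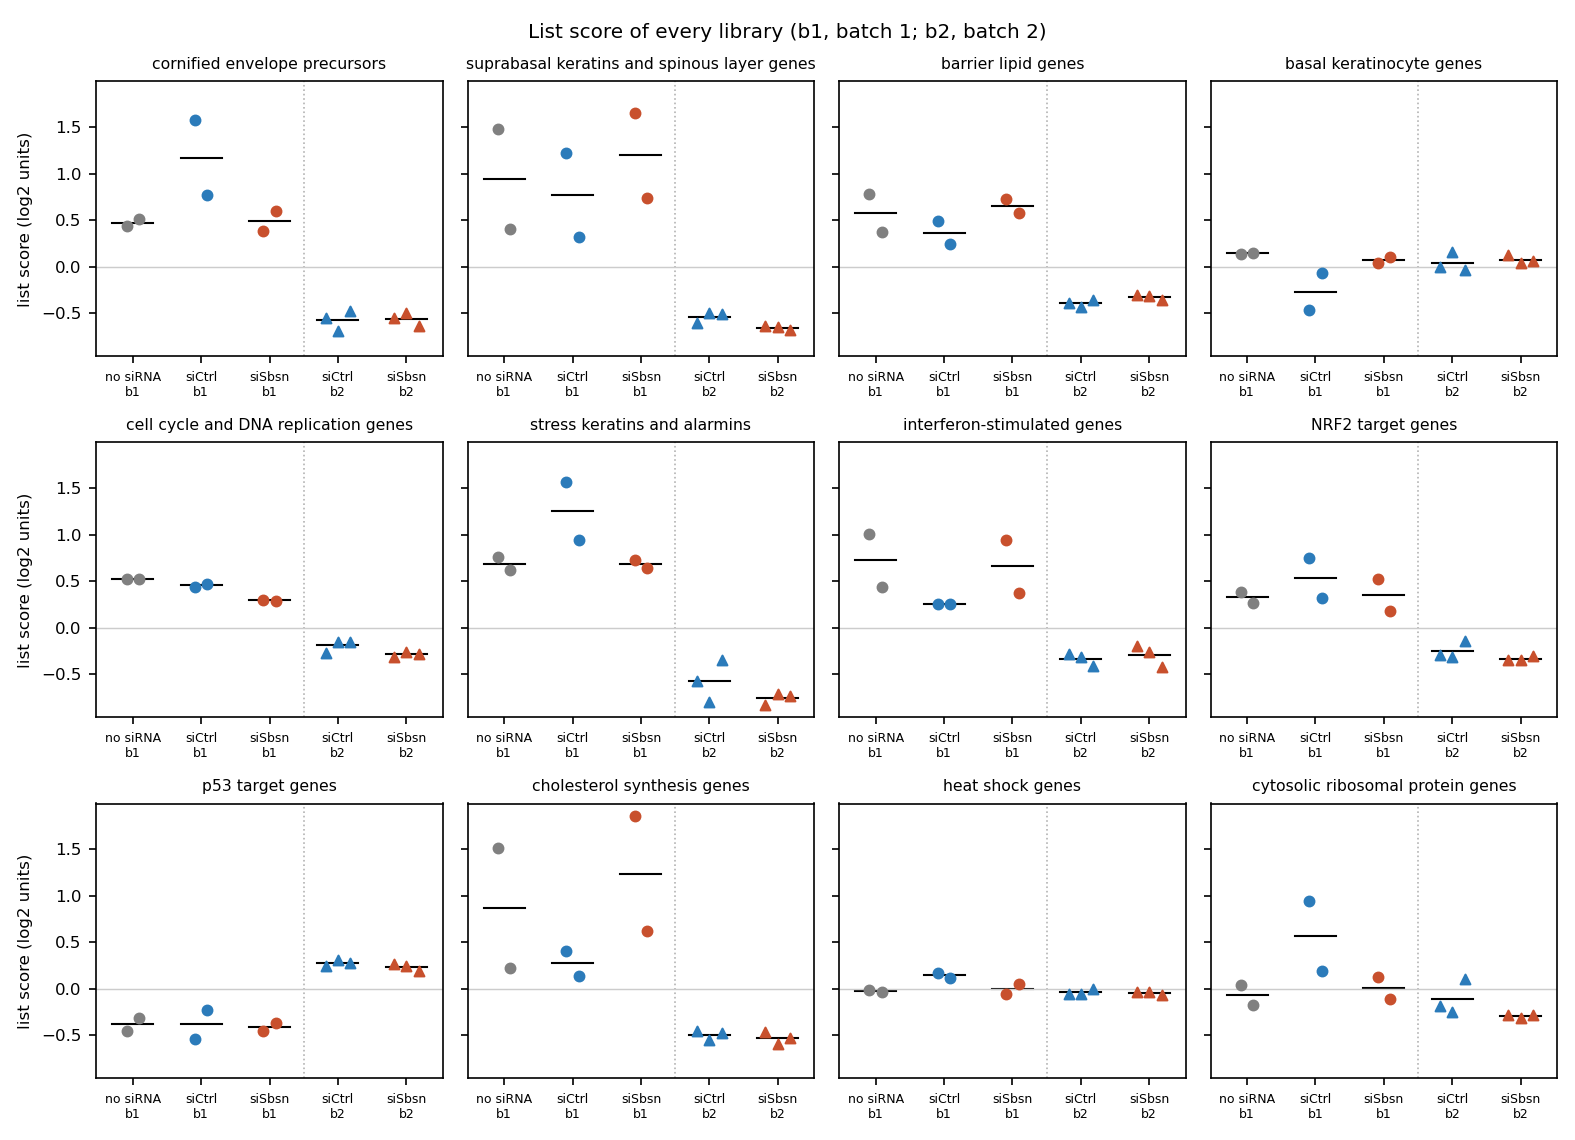
Score of 12 gene lists in every library, as the median over the list of the log2 deviation (CPM + 0.5) of each locus from its mean over the 10 fitted libraries; circles are batch 1, triangles batch 2, grey is no siRNA (scaled with all 12 libraries and not fitted), blue is siControl, red is siSbsn, and the line is the group mean. In batch 2 every library scores below 0 for the cornified envelope (-0.69 to -0.48) and above 0 for p53 targets (0.19 to 0.31), while the basal, heat shock and ribosomal protein lists do not separate the batches.

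The p53 target genes went the other way. Of 24 tested, 14 (58.3%) were higher in batch 2, *Perp* was lower (-0.72), and the median was 0.61. All 6 libraries of batch 2 were above all 4 of batch 1 at 16 loci, an arrangement found in 16.1% of all loci. *Trp53inp1*, a stress-induced regulator of p53 activity, was at 59.2, 104, 87.1 and 133 CPM in batch 1 and 327 to 525 CPM (median 478) in batch 2, a 4.77-fold difference (2.25 ± 0.18, adjusted p = 1.02e-05, edgeR). *Eda2r*, a receptor of the TNF receptor family, was at 12 to 27.9 CPM and 48.3 to 67.7 CPM (1.57 ± 0.18), and *Polk*, a bypass DNA polymerase, at 31.6 to 62.4 CPM and 104 to 134 CPM (1.33 ± 0.17).

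*Cdkn1a*, the cell cycle inhibitor that is the best known p53 target, was at 1374, 1284, 1233 and 1237 CPM in batch 1 and 1513 to 1610 CPM (median 1561) in batch 2. The batches did not overlap, but the difference of 0.29 ± 0.07 (adjusted p = 0.00651, edgeR) was under the fold threshold. The direction of the list held in siControl alone (0.59), in siSbsn alone (0.63), with the length trend removed (0.64) and with both number 1 libraries left out (0.55). *Mdm2*, *Ccng1*, *Bbc3* and *Zmat3* were among its higher members, and *Bax*, *Phlda3* and *Gdf15* were not called (0.06, 0.23 and -0.37).

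Unfolded protein genes leaned lower by small amounts, and heat shock and immediate early genes showed little common movement. Of all loci 21.6% were lower and 16.3% higher. Of 27 unfolded protein and integrated stress genes 10 (37%) were lower and *Atf3* (3.7%) was higher at 0.93, with a median of -0.21. The chaperone *Hspa5* was at 0.18 and not called. The lower members included *Nupr1*, a stress-induced nuclear protein (-2.03 ± 0.19), *Mthfd2*, a mitochondrial folate enzyme (-1.10 ± 0.10), and *Chac1*, which degrades glutathione (-1.04 ± 0.10). Of 18 heat shock genes *Hspb1*, *Hsp90ab1* and *Hspa1a* (16.7%) were lower, at -1.20, -0.56 and -0.54, and *Dnajb4* (5.56%) was higher at 0.62. The heat shock median of -0.12 became 0.02 when counts were scaled by library totals only. Of 25 AP-1 and immediate early genes 5 were higher and 7 lower (20% and 28%), with a median of -0.14 that turned to 0.14 in siSbsn alone and to 0.02 when scaled by library totals only.

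Single immediate early genes differed in opposite directions. *Egr2*, a zinc finger factor, was at 28, 32.5, 52.6 and 43 CPM in batch 1 and 5.59 to 7.14 CPM (median 6.14) in batch 2 (-2.63 ± 0.16, adjusted p = 1.80e-06, edgeR). *Egr3* (-1.30 ± 0.21) and the phosphatase *Dusp5* (-1.04 ± 0.14) were lower too. *Jun*, *Myc*, *Nr4a1* and *Klf6* were higher, at 0.53, 0.71, 0.65 and 0.87.

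Migration and matrix genes were lower at 15 of 28 tested loci and higher at 2, *Serpine2* (1.23) and *Inhba* (0.93), with a median of -0.72. *Mmp9*, a protease that degrades basement membrane collagen, was at 40.7, 39.9, 36.4 and 23.9 CPM in batch 1 and 5.06 to 9.05 CPM (median 6.08) in batch 2 (-2.43 ± 0.14, adjusted p = 1.76e-06, edgeR). *Plau*, encoding urokinase, was at 120 to 231 CPM and 53 to 66.2 CPM (-1.41 ± 0.16), and *Sdc1*, encoding syndecan 1, differed by -1.43 ± 0.13. The loci of the matrix genes *Fn1* and *Tnc*, which join further transcripts, were not called (0.09 and 0.11). The median became -0.45 once the siSbsn library numbered 1 in batch 1 was left out.

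Cholesterol synthesis genes were lower at 19 of 22 tested loci (86.4%), with a median of -1.52, and at 18 loci batch 2 lay wholly below batch 1. *Dhcr7*, which makes cholesterol from 7-dehydrocholesterol, was at 119, 133, 165 and 115 CPM in batch 1 and 15 to 17.6 CPM (median 17.1) in batch 2, a 7.92-fold difference (-2.99 ± 0.11, adjusted p = 9.31e-08, edgeR). *Fdps*, which makes farnesyl diphosphate, was at 37.9 to 145 CPM and 15.1 to 20.4 CPM (-2.19 ± 0.31). *Msmo1*, whose promoter is printed above with 3 CCAAT boxes, averaged 158 CPM in batch 1 and 35.1 CPM in batch 2 (-2.11).

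The size of the cholesterol difference rested in part on a library of batch 1. The list scored 1.86 in the library labelled siSbsn batch 1 replicate 1, against 0.14 to 0.62 in the others of batch 1 and -0.60 to -0.46 in batch 2. Without it the median was -0.96, and with both number 1 libraries left out it was -0.88 with 18 loci lower. The median was -1.03 in siControl alone and -2.09 in siSbsn alone.

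Genes of hypoxia and glycolysis were lower at 13 of 26 tested loci and higher at 2, *Car9* (0.91) and *Ndrg1* (0.55), with a median of -0.56. *Slc2a1*, the main glucose transporter of keratinocytes, was at 72.6, 65.3, 177 and 69.1 CPM in batch 1 and 23.6 to 34.2 CPM (median 29) in batch 2 (-1.71 ± 0.28, adjusted p = 6.75e-04, edgeR). *Pdk1*, which restrains pyruvate entry into mitochondria, was at 7.13, 7.26, 32.1 and 14.3 CPM and 4.99 to 7.07 CPM (-1.07 ± 0.31), and in siControl alone it was at -0.23 (adjusted p = 0.374). *Pfkl*, a phosphofructokinase subunit, differed by -0.92 ± 0.22. With both number 1 libraries left out 5 loci were lower and the median was -0.24.

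The respiratory chain was lower at 31 of 71 tested loci (43.7%), and these are short genes with a median transcript of 1141 bases. The median of -0.48 became -0.06, with 5 loci lower, once the length trend was removed. *Uqcr11* (605 bases) went from -1.24 ± 0.24 to -0.61, *Ndufa4* (1232 bases) from -1.12 ± 0.19 to -0.71 and *Ndufa3* (782 bases) from -1.02 ± 0.19 to -0.48. The cytosolic ribosomal protein genes, also short, were lower at 40 of 78 tested loci with a median of -0.54, and at 9 with a median of -0.16 after the trend was removed.

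The batch difference rose with transcript length across all genes. The median log2-fold change was -0.45 in the decile of shortest transcripts and 0.47 in the decile of longest, and the share of loci called higher went from 4.79% to 43.1% while that called lower went from 42.7% to 6.07%. Loci called higher had a median transcript of 4867 bases, those called lower 2554 bases, and all loci with a length 3463 bases. The trend was strongest in siControl batch 1 replicate 1, whose shortest decile lay 0.76 above and longest decile 0.86 below the mean of the libraries. Whether RNA quality or library preparation differed was not tested.

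**Figure D5:**
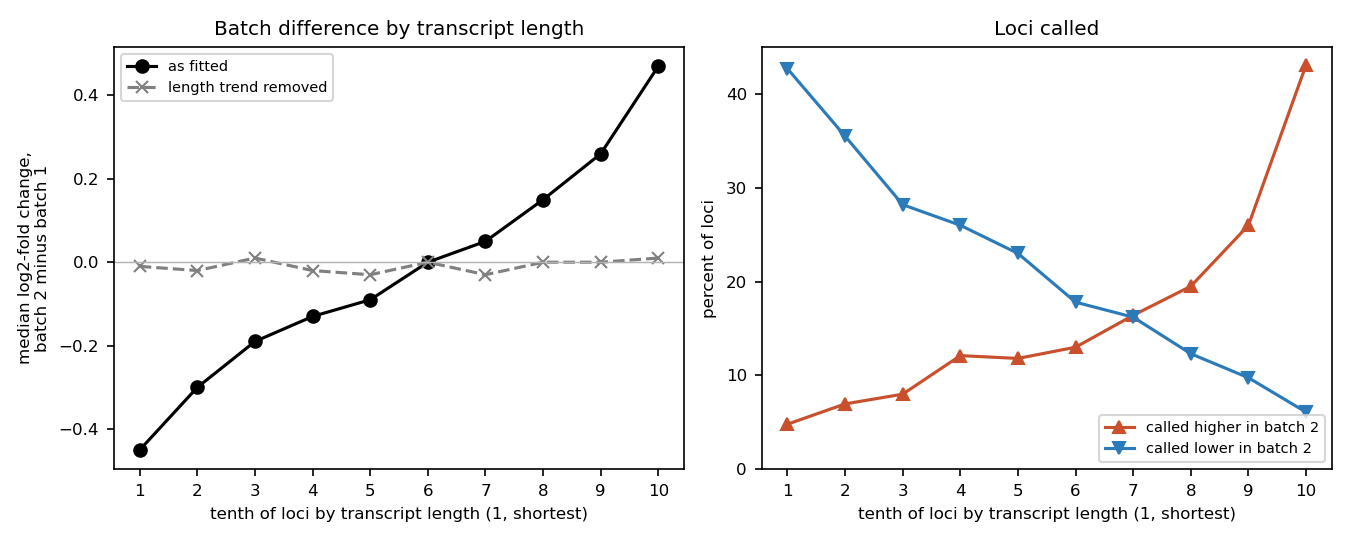
Left, median log2-fold change (batch 2 minus batch 1) in each decile of loci by longest annotated transcript, as fitted (black) and with the length trend of each library removed (grey); right, percent of loci called higher (red) and lower (blue) in each decile. The median runs from -0.45 to 0.47 as fitted and from -0.03 to 0.01 with the trend removed.

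With the length trend removed 1929 loci were higher and 2604 lower, of which 1524 and 2227 were also called in the fit with it. In that fit the envelope list had 41 loci lower (median -1.34), stress keratins and alarmins 12 (median -1.89), spinous layer genes 14 (median -1.51), cholesterol synthesis genes 21 (median -1.38) and cell cycle genes 22 (median -0.74). The p53 list had 15 loci higher (median 0.64).

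Among loci with a single protein-coding gene, a mean of 5 CPM or more and no overlap in either treatment, the largest differences were lower in batch 2. *Psca*, a surface antigen of epithelia, was at 22.4, 17.7, 9.82 and 10.3 CPM in batch 1 and 0.371 to 1.11 CPM (median 0.493) in batch 2, a 25.3-fold difference (-4.66 ± 0.20, adjusted p = 2.99e-07, edgeR). *Krt79*, a keratin of the hair canal and sebaceous duct, was at 15.8, 8.67, 65 and 16.1 CPM and 0.975 to 1.63 CPM (-4.24 ± 0.52). Its 65 CPM is that of the library labelled siSbsn batch 1 replicate 1. The others of batch 1 were above batch 2, as the selection required. *Clu*, encoding the chaperone clusterin, was at 83.5, 51.9, 116 and 62.4 CPM and 6.55 to 7.46 CPM (-3.44 ± 0.19).

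The other large differences of this kind were *Pdzk1ip1* (-3.92 ± 0.36), *Pinlyp* (-3.77 ± 0.43), *Myl7* (-3.67 ± 0.25), *Gabrp* (-3.44 ± 0.25) and *Prss27* (-3.42 ± 0.18), beside *Gsta4* and *Sprr2d*. *Myl7* is a myosin light chain of heart muscle, *Gabrp* a GABA receptor subunit and *Prss27* a serine protease of stratified epithelia. *Myl7* was at 58.5, 31.8, 21.4 and 14.7 CPM in batch 1 and 1.85 to 3.27 CPM in batch 2. Since no overlap in either treatment was a condition for this list, each was lower in siControl and in siSbsn by selection.

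At a log2-fold change over 1, fewer loci were called higher (616) than lower (1315). *Zdbf2*, an imprinted gene, was at 3.28, 10.9, 4.22 and 8.73 CPM in batch 1 and 24.4 to 41.8 CPM (median 35.5) in batch 2 (2.34 ± 0.32, adjusted p = 2.61e-04, edgeR). *Txnip*, a glucose-responsive inhibitor of thioredoxin, was at 111, 178, 78.1 and 171 CPM and 435 to 590 CPM (median 523), with 1.94 ± 0.22 (adjusted p = 8.77e-05). *Plagl1*, an imprinted zinc finger factor, was at 24.2 to 48.7 CPM and 108 to 135 CPM (1.76 ± 0.19), and *Abcb1b*, a drug efflux pump, at 8.11 to 14.2 CPM and 33.1 to 40 CPM (1.81 ± 0.17). With the length trend removed *Txnip*, *Plagl1* and *Abcb1b* were at 1.59 or more. *Txnip* is counted in 1 locus with *Gm15441*, and *Abcb1b* and *Mga* each with an unnamed transcript, so their reads are not those of the gene alone.

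*Vcan* (a 4.01-fold difference), *Mga* (1.85 ± 0.31), *Zbtb10* (1.75 ± 0.25), *Amot* (1.73 ± 0.25) and *Plcxd2* (1.69 ± 0.31) complete the list beside *Trp53inp1*. *Vcan* encodes the matrix proteoglycan versican, *Mga* a partner of MAX, and *Amot* a regulator of the Hippo pathway. *Vcan* and *Mga* have transcripts of 12427 and 13931 bases, and with the length trend removed they were at 1.40 and 1.18. In siControl alone the adjusted p of *Vcan* was 0.0525 and that of *Plcxd2* was 0.0526.

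The batch difference was also fitted within each treatment. In siControl alone 553 loci were higher and 1387 lower, and in siSbsn alone 2035 and 2627. The interaction of batch and treatment called 0 of 13419 loci (0%) by edgeR, with a smallest adjusted p of 0.272 while 1991 loci had an unadjusted p under 0.05. With DESeq2, 165 of 12277 were called. The edgeR count rested on single libraries, since it was 4775 without siControl batch 1 replicate 2 and 411 without siSbsn batch 1 replicate 2, and 0 without each of the other 8. In those fits the lone library left in a group is assumed to vary like the other groups.

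The libraries of batch 1 without siRNA, which were not fitted, were set beside batch 2 at the loci called. Of the 2902 loci called lower, 2177 (75%) had both libraries without siRNA above all 6 of batch 2. Of the 2192 called higher, 1377 (62.8%) had both below. These loci were called on the same batch 2 values, and the matching shares over all loci tested were not counted. The shares therefore have no background beside them, and no conclusion is drawn from them. The libraries without siRNA scored 0.44 and 0.51 for the envelope list and -0.45 and -0.32 for the p53 list. In the cholesterol list they scored 1.52 and 0.22, beside 1.86 and 0.62 in the siSbsn libraries of batch 1. The library labelled siSbsn batch 1 replicate 1 was closest to no siRNA replicate 1, at a median absolute difference of 0.11 log2 units, against 0.22 from its own group mate.

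Keratinocyte markers were present in all 10 libraries, as the label of the cells gives them. Besides *Krt5* and *Krt14*, the desmosome gene *Dsp* was at 2850 to 8932 CPM and *Cdh1*, encoding E-cadherin, at 1128 to 2055 CPM, with *Cdh1* not called (-0.09, adjusted p = 0.577, edgeR). *Dsp* was called higher (0.51 ± 0.17, adjusted p = 0.0305) and was at -0.01 with the length trend removed. *Epcam*, an adhesion molecule of simple and follicular epithelia, was at 288, 267, 322 and 234 CPM in batch 1 and 78.4 to 100 CPM in batch 2 (-1.72 ± 0.10, adjusted p = 1.80e-06).

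Markers of other skin cells were summed in each library. In bulk RNA, fewer cells of a type and less RNA per cell cannot be told apart. The summed level of 20 fibroblast markers was 1831 to 3390 CPM in batch 1 and 1455 to 1630 CPM in batch 2, with 5 lower (25%) and 2 higher (10%), beside 21.6% and 16.3% of all loci. The median of the fibroblast list was -0.32, and 0.06 in siControl alone. Melanocyte markers were higher at 5 of 8 tested loci (62.5%, beside 16.3% of all loci). Their sum was 429 to 628 CPM in batch 1 and 709 to 817 CPM in batch 2. The higher members included *Tyr*, *Dct* and *Tyrp1*, enzymes of pigment synthesis.

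Immune markers were low in both batches, at a sum of 12.2 to 23.6 CPM and 7.42 to 9.68 CPM, with 7 of 8 tested loci lower and the Langerhans cell marker *Cd207* at 0 in all 10 libraries. Of 29 hair follicle and sebaceous genes 11 passed the filter on low counts, 5 were lower and *Lhx2* was higher (0.50), the sum was 917 to 1727 CPM and 513 to 552 CPM, and the hair keratin *Krt33a* was at 0. Endothelial and muscle markers summed to 4.69 to 6.68 CPM and 3.29 to 4.65 CPM. The part of these cells in the differences above was not tested.

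Of 5 sex-linked loci 1 was higher and 1 lower (20% each), beside 16.3% and 21.6% of all loci. The median was -0.10, and 0.12 in siControl alone. The locus that joins *Tsix* and *Xist*, the RNA that silences an X chromosome in females, was higher in batch 2 (1.97, adjusted p = 5.70e-04, edgeR), with means of 298 and 1115 CPM. Reads of *Tsix* and *Xist* cannot be told apart in a joined locus. Of the Y-linked genes *Eif2s3y* was lower (-0.58), and *Ddx3y*, *Kdm5d* and *Uty* were not called (0.03, -0.25 and -0.10).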

How the data were processed

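RNA-Seq was performed on 12 libraries, of which 10 were compared here. The authors aligned reads to mm10 with STAR, counted uniquely aligned reads on UCSC KnownGene loci and used DESeq2, and the deposited table holds raw counts for 21947 loci, of which 2974 join gene names by a plus and 1828 by a comma. *Col7a1*, *Syne2*, *Slpi*, *Pfkl*, *Dhcr7*, *Fdps*, *Cdh1*, *Mcm3*, *Ndrg1* and *Zmat3* are loci joined with a microRNA or an uncharacterized transcript. No source used here states whether strand was used in counting.

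Counts were tested with edgeR 4.0.16 in R 4.3.3 (filterByExpr, TMM, quasi-likelihood F test, model of treatment and batch), with adjusted p by Benjamini-Hochberg. A standard error is the log2-fold change divided by the root of F. DESeq2 1.42.0, limma-voom (limma 3.58.1), other scalings and filters, each treatment alone, all 12 libraries, a replicate block and removal of a length trend were the alternatives. Length is that of the longest GENCODE M21 transcript, left out for 600 loci where it exceeds the locus, which includes *Flg*. On simulated counts for 13247 loci, edgeR found 87 of 100 loci set to differ by a log2 value of 1. It found 100 of 100 set to differ by 2 and made 16 false calls. The simulation changed 200 loci, gave both batches the same dispersion, and held no treatment effect and no length trend. In the data far more loci were called, batch 1 varied more than batch 2 and a length trend was present, so these rates may not carry over.

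The members and gene lists were chosen with earlier results of these data known. Genes named are 15 fixed keratinocyte genes, up to 3 called members of each list with the largest change and a mean of at least 5 CPM, the 10 largest non-overlapping changes in each direction, and lineage markers. Other genes, such as exceptions within a list and *Msmo1*, were named after their values were seen. *Gapdh* and gene families with near-identical copies are undercounted where only unique reads count. A gene that the naming rule selects is not reported here.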

Additional observations from a re-analysis of the deposited data

Results flagged for a closer look

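Single libraries lay far from the rest of their batch in 36 of 240 groups of values examined, where the gap to the nearest other library took up most of the batch's range. Chance marks about 1 in 20 such groups where they are independent, which these are not, since they share libraries. The value of the library is given first, followed by the range of the others of its batch, as a list score or as CPM, and the cause was not tested.

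The library labelled siSbsn batch 1 replicate 1 stood apart in 10 of them. Its scores were high for interferon-stimulated genes (0.95 against 0.26 to 0.37), hair follicle and sebaceous genes (0.91 against 0.09 to 0.13) and immune cell markers (0.98 against 0.18 to 0.25). Its CPM were high for *Krt1* (338 against 26.6 to 46.8), *Krt10* (70.8 against 16.5 to 25.4), *Sdr9c7* (35.2 against 14.2 to 16.9) and *Col7a1* (122 against 52.4 to 64.2). They were also high for *Ifi44* (93.7 against 39.6 to 44), *Slc2a1* (177 against 65.3 to 72.6) and *Krt79* (65 against 8.67 to 16.1).

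The library siControl batch 2 replicate 3 stood apart in 22, and always toward the side of batch 1. Its scores differed for NRF2 target genes (-0.14 against -0.35 to -0.29), respiratory chain genes (0.09 against -0.27 to -0.17), cytosolic ribosomal protein genes (0.11 against -0.31 to -0.19) and melanocyte markers (0.12 against 0.24 to 0.29). In CPM it was apart at *Sprr2d* (1.97 against 1.4 to 1.6), *Cnfn* (216 against 123 to 158), *Cst6* (49.1 against 31 to 35.8), *Klk6* (107 against 77.3 to 85.8) and *Hopx* (94.7 against 65.9 to 72.6). The same held at *Dst* (1040 against 1400 to 1601), *Areg* (6.95 against 4.29 to 4.98), *Isg15* (37.6 against 27.4 to 31.1), *Mthfd2* (60.9 against 51.5 to 54) and *Gsta4* (18.2 against 11.6 to 13.9). Further genes were *Fdps* (20.4 against 15.1 to 16), *Ndufa4* (131 against 92.6 to 103), *Ndufa3* (34.5 against 24.1 to 27.5), *Mga* (165 against 249 to 299) and *Zbtb10* (21.2 against 26.7 to 29.2). The remaining genes were *Psca* (1.11 against 0.371 to 0.613), *Pinlyp* (2.19 against 1.23 to 1.5) and *Epcam* (100 against 78.4 to 83.9).

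The library siControl batch 1 replicate 1 stood apart in 3, at *Krt17* (50409 against 23153 to 27135), *Ehf* (62.9 against 102 to 104) and *Mthfd2* (146 against 105 to 109). The library siSbsn batch 2 replicate 5 stood apart in 1, at *Clu* (6.55 against 7.15 to 7.46).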

How the results depend on the processing

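The counts of loci higher and lower kept within 1.5 times of 2192 and 2902 with DESeq2 (2401 and 2919), limma-voom (2271 and 2788), other scalings and filters, siSbsn alone (2035 and 2627), all 12 libraries and each library left out (1839 to 2512 and 2497 to 3188). They were 553 and 1387 in siControl alone and 616 and 1315 at a log2 threshold of 1. List medians changed sign in 13 of the fits with another setting and in 3 of those that left out a single library, all of them in the basal, heat shock, AP-1, fibroblast, endothelial and muscle, or sex-linked lists. The causes of the changes given here were not tested.

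In siControl alone medians were -2.24 (cornified envelope), -1.26 (cross-linking), -0.91 (barrier lipid), 0.31 (basal), -1.14 (cytokines), -0.31 (unfolded protein), -0.24 (hypoxia), -0.22 (AP-1), -0.48 (migration), -1.03 (cholesterol), 0.06 (fibroblast) and 0.12 (sex-linked), with *Krt1* at 0.53 and *Cdh1* at 0.06. In siSbsn alone they were -1.48 (envelope), -1.21 (barrier lipid), -0.43 (transcription factors), -0.02 (basal), -1.22 (interferon), 0.01 (heat shock), 0.14 (AP-1), -0.63 (migration), -2.09 (cholesterol) and -0.14 (endothelial and muscle), with *Flg* at -0.65.

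With both number 1 libraries of batch 1 left out, they were -1.26 (spinous layer), -1.59 (envelope), -1.07 (cross-linking), -0.76 (barrier lipid), -0.28 (transcription factors), -0.71 (cell cycle), -1.71 (stress keratins), -1.22 (cytokines), -0.07 (heat shock), -0.54 (NRF2), -0.24 (hypoxia), 0.01 (AP-1), -0.35 (migration), -0.88 (cholesterol) and -0.14 (respiratory chain), with *Krt1* at 0.10 and *Flg* at -0.47. With the length trend removed they were -1.34 (envelope), -0.07 (basal), -0.74 (cell cycle), -1.89 (stress keratins), -0.01 (heat shock), -0.67 (NRF2), 0.05 (AP-1), -0.39 (migration) and -0.06 (respiratory chain), with *Dsp* at -0.01.

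Scaled by library totals only, medians were -0.88 (barrier lipid), -0.19 (transcription factors), 0.26 (basal), -0.51 (cell cycle), -0.87 (cytokines), -0.06 (unfolded protein), 0.02 (heat shock), 0.75 (p53), 0.02 (AP-1), -0.56 (migration) and 0.04 (sex-linked), with *Cdh1* at 0.05. The stricter filter gave -2.02 (stress keratins), -0.79 (cytokines) and -0.79 (endothelial and muscle), with fewer loci tested, and limma-voom put *Flg* at -0.02.

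Leaving out each library in turn, the interaction count ran from 0 to 4775 (165 with DESeq2) and the difference in total counts from -2685798 to 2718974. Medians ran from -2.0 to -1.53 (envelope), -1.14 to -0.84 (barrier lipid), -0.39 to -0.32 (transcription factors), -0.69 to -0.59 (cell cycle), -2.39 to -2.02 (stress keratins), -1.17 to -0.90 (cytokines), -0.15 to -0.07 (heat shock), 0.53 to 0.77 (p53), -0.63 to -0.35 (hypoxia), -0.23 to 0.08 (AP-1), -0.85 to -0.45 (migration), -1.77 to -0.96 (cholesterol) and -0.31 to 0.08 (sex-linked). *Krt1* ran from -1.82 to 0.07, *Flg* from -0.37 to 0.39 and *Cdh1* from -0.23 to 0.02.

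Replicate numbers 1 and 2 are shared between treatments within batch 1, and in batch 1 the number 1 minus number 2 differences correlated across loci at 0.46 between siControl and siSbsn, 0.38 between no siRNA and siControl and 0.81 between no siRNA and siSbsn. The labels do not say what a number shares. With the number as a block in the pairing, 2389 loci were higher and 2880 lower.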

Other observations

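Keratins of simple epithelia were lower in batch 2 at 4 of 5 tested loci, with a summed level of 105 to 239 CPM in batch 1 and 34.4 to 56.3 CPM in batch 2. *Krt8* differed by -2.49, *Krt7* by -1.78, *Krt18*, the partner of *Krt8*, by -1.73 and *Krt19* by -0.95, while *Krt20* was higher (1.01).

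Replication-dependent histone genes were higher at 10 of 23 tested loci and lower at 2, with a median of 0.58 and of 0.64 with the length trend removed. *Hist1h1b*, a linker histone, was the highest (1.42). Most of these messages carry no poly(A) tail, and 35 listed histone genes were below the filter on low counts.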
